A study of Homo sapiens with 8 samples.

Results

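The calcium-dependent secretion activator genes CADPS2 and CADPS and the CUGBP Elav-like genes CELF2 and CELF1 were followed over 8 arrays of a pair of colon cancer cell lines. The members are all probe sets that the platform annotation assigns to exactly 1 of these 4 gene symbols. They number 21 of 54675 probe sets on the array: 1 for CADPS2, 7 for CELF2, 6 for CADPS and 7 for CELF1. CADPS2 and CELF2 were picked because their signal was near background in 1 of the lines, so the difference between the lines is a description for these 2 genes and carries no test. CADPS and CELF1 were taken in as their relatives.

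The tested line is DKS-5, labelled K-ras mutant, and it was set against DKO-3, labelled K-ras wild-type. Each line was kept in hypoxia (1% O2 for 12 h) or normoxia (21% O2), which gives 4 groups of 2 arrays: DKS-5 hypoxia, DKS-5 normoxia, DKO-3 hypoxia and DKO-3 normoxia. Both lines are known as clones of the DLD-1 colon cancer line, so each genotype is represented by 1 clone, and K-ras status cannot be told apart from other differences between the clones. All cells were harvested before confluence, and total RNA was amplified to cDNA and labelled with biotin. Whether the 2 arrays of a group stem from separate cultures is not stated. The p-values therefore measure only the spread between these arrays, which may be technical.

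CADPS proteins, also called CAPS, act at a late step of regulated secretion: they prime dense-core vesicles at the plasma membrane so that a rise in calcium lets them fuse. CADPS is best known from neurons and neuroendocrine cells, and CADPS2 from neurons and from the release of neurotrophins such as BDNF. CELF proteins bind GU-rich stretches of RNA. They act on alternative splicing in the nucleus and on decay and translation of mRNA in the cytoplasm; CELF1 is expressed broadly, and CELF2 is best known from brain, heart, muscle and T cells.

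Values are MAS5 signals, a linear fluorescence intensity per probe set, scaled so that every array has the same trimmed mean. Differences were taken on log2(signal + 16), which understates changes of dim probe sets. A probe set was tested if its mean lay above the 40th percentile, a signal of 13.8, and 32768 probe sets passed. Of the 21 member probe sets 16 passed and 5 did not, all 5 of them CELF2. For CADPS2 and CELF2 the filter was passed through DKO-3, where they are bright.

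The arrays carried the epithelial label of the lines. EPCAM, an adhesion protein of epithelial cells, had the highest mean of 12 colon epithelium markers in both lines, 7139 in DKS-5 and 5822 in DKO-3. Of these 12 markers, 6 stood above the 70th percentile of probe sets in DKS-5 and 7 in DKO-3. In each line 4 of the 12 stood below the 50th percentile. Of the 9 epithelium markers tested, 1 rose and 1 fell in DKS-5 at both oxygen levels, beside 2.84% of all 12735 tested genes passing in hypoxia and 1.79% in normoxia, each gene taken by its brightest probe set. VIL1, the villin of microvilli, was higher in DKS-5 on its brightest probe set, 228912_at. The log2 difference was 1.53 (adjusted p = 0.00570, limma) in hypoxia and 1.77 (adjusted p = 0.00246) in normoxia. The hypoxia call of 228912_at was lost without DKO-3 hypoxia replicate 1, without the filter (adjusted p = 0.0596, limma) and with an RNA quality covariate (0.234). Of the other tested VIL1 probe sets, 205506_at stood at 0.93 (adjusted p = 0.0706) in hypoxia and 1.19 (adjusted p = 0.0290) in normoxia. Probe set 1554945_x_at stood at 1.43 (adjusted p = 0.00988) in hypoxia and −0.22 (adjusted p = 0.936) in normoxia. KRT20, a keratin of differentiated colon epithelium, was lower in DKS-5, with a log2 difference of −3.92 (adjusted p = 3.96e-06, limma) in hypoxia and −4.09 (adjusted p = 2.19e-06) in normoxia. The 17 markers of non-epithelial cells with a probe set had a median signal of 8.38 over DKS-5 arrays, against 8.53 over DKO-3 arrays, and none stood above the 70th percentile. The 8 neuroendocrine markers with a probe set had a median of 7.04 over DKS-5 arrays, against 4.93 over DKO-3 arrays. The 3′ to 5′ ratio of the ACTB control probe sets, a measure of RNA integrity and amplification, was 25.6 to 55.1 on the DKS-5 arrays and 11.015 to 49.0 on the DKO-3 arrays, lowest on both DKO-3 hypoxia arrays (11.47 and 11.015). Its part in the line differences was not tested beyond a fit with the ratio as a covariate.

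CADPS2 was close to background in DKS-5 and clearly present in DKO-3. Its single probe set, 219572_at, read 1.54 and 8.75 in DKS-5 hypoxia and 0.931 and 0.514 in DKS-5 normoxia. The same probe set read 209 and 130 in DKO-3 hypoxia and 201.4 and 153 in DKO-3 normoxia. All 4 DKS-5 arrays therefore lay below all 4 DKO-3 arrays, and no DKS-5 array was above 8.75, close to the median of the non-epithelial markers. Within the arrays CADPS2 stood at percentiles 2.20 to 30.4 in DKS-5, against 73.8 to 79.3 in DKO-3. The log2 difference, DKS-5 minus DKO-3, was −3.12 in hypoxia and −3.52 in normoxia. In bulk RNA of this kind, fewer cells with the transcript and less transcript per cell cannot be told apart.

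CELF2 showed the same arrangement on its 2 brighter probe sets. Probe set 202158_s_at read 1.18 and 19.4 in DKS-5 hypoxia and 2.67 and 1.24 in DKS-5 normoxia. It read 117 and 275 in DKO-3 hypoxia and 159 and 117 in DKO-3 normoxia. The DKS-5 hypoxia array at 19.4 was the highest of its line but still far below the lowest DKO-3 array. Probe set 202157_s_at was tighter, with 7.94 and 5.51 in DKS-5 hypoxia, 6.28 and 8.23 in DKS-5 normoxia, 135 and 134 in DKO-3 hypoxia, and 93.2 and 106 in DKO-3 normoxia. The log2 difference of 202158_s_at was −2.995 in hypoxia and −3.09 in normoxia, and that of 202157_s_at was −2.73 and −2.31.

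**Figure D1:**
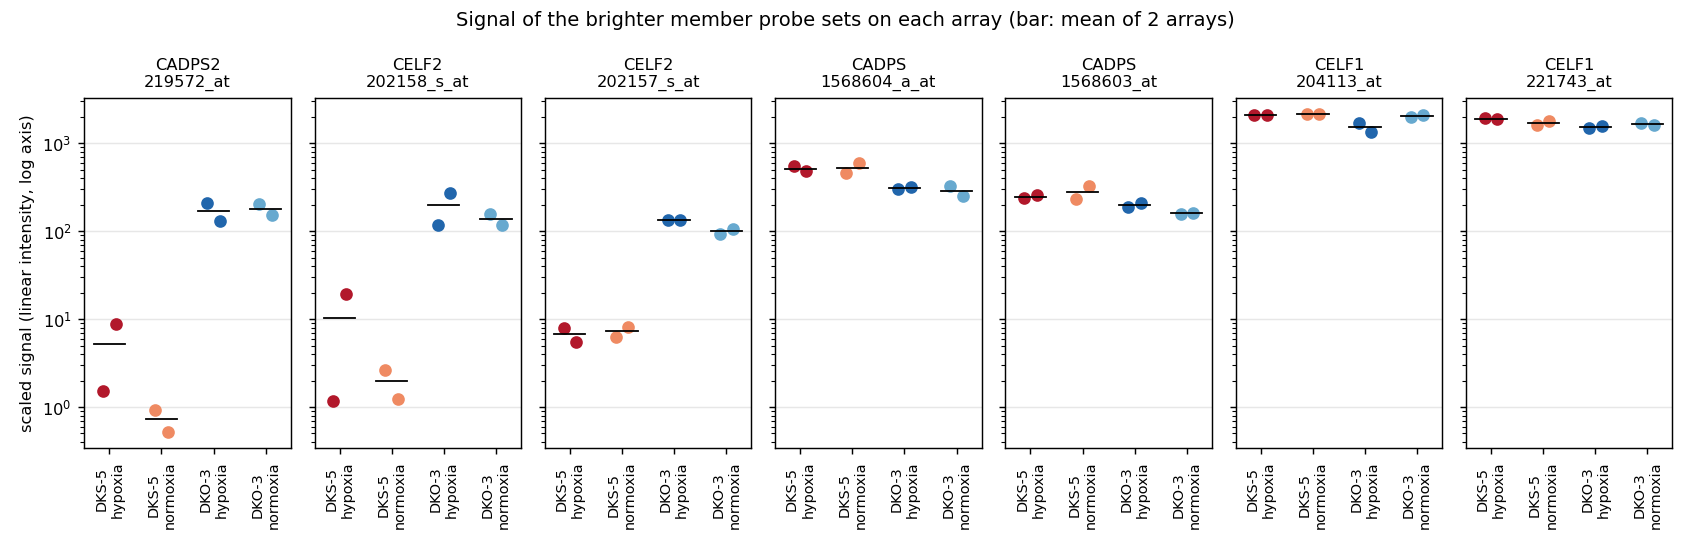
Scaled signal (linear intensity, log axis) of 7 member probe sets on each array, with DKS-5 hypoxia, DKS-5 normoxia, DKO-3 hypoxia and DKO-3 normoxia from left to right in each panel; points are arrays and bars are means of 2 arrays. CADPS2 and both CELF2 probe sets lie at or below 19.4 on all DKS-5 arrays and at or above 93.2 on all DKO-3 arrays, while CADPS and CELF1 are bright in both lines.

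The other 5 CELF2 probe sets were dim in both lines and were not tested. Probe set 227178_at read 9.49 and 6.17 in DKS-5 hypoxia, 2.68 and 6.62 in DKS-5 normoxia, 23.1 and 20.4 in DKO-3 hypoxia, and 18.0 and 16.9 in DKO-3 normoxia, so the lines did not overlap. Probe set 202156_s_at ran from 1.53 to 10.4 over the DKS-5 arrays and from 11.6 to 34.4 over the DKO-3 arrays, again without overlap. The remaining 3 (1554569_a_at, 1556323_at and 242268_at) stayed at or below 11.3 in DKS-5 and 10.5 in DKO-3, and on each of them the lines overlapped. The lines were thus apart on 4 of the 7 CELF2 probe sets, all lower in DKS-5. Of all 32768 tested probe sets, 7.39% showed this arrangement. That share leaves out probe sets below the filter, such as 202156_s_at and 227178_at. The choice of this gene used the same arrangement. The antisense gene CELF2-AS1 averaged below 1 in every group (0.509 in DKS-5 hypoxia, 0.490 in DKS-5 normoxia, 0.722 in DKO-3 hypoxia and 0.622 in DKO-3 normoxia).

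The size of these differences depends on the constant added before the logarithm. With 1 in place of 16, CADPS2 stood at −5.06 in hypoxia and −6.69 in normoxia. CELF2 stood at −4.76 and −5.58 on 202158_s_at, and at −4.15 and −3.62 on 202157_s_at. On the deposited scale the fold of a gene near background is therefore not fixed by these arrays. No detection call was used here, and the statement that both genes were near background in DKS-5 rests on their signal beside that of the marker genes.

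Few probe sets with 1 gene symbol were dim on all DKS-5 arrays and bright on all DKO-3 arrays. CADPS2 and CELF2 were chosen for a signal near background in DKS-5, so the count describes them and does not test them. With cut-offs chosen after the values were seen, dim was below the 50th percentile and bright above the 70th. The 50th percentile was a signal of 23.0 to 24.3 on the DKS-5 arrays, above the filter signal of 13.8, so dim is wider than near-absent. Of 41091 probe sets with 1 gene symbol, 11 showed this arrangement. They belong to 8 genes: CADPS2, CELF2, KLHL13, KRT20, LINC01133, RHBDL2, RPS6KA6 and SH3BGRL. The opposite arrangement, bright on all DKS-5 and dim on all DKO-3 arrays, held for 9 probe sets of 6 genes. Among the members, CELF2 202157_s_at was nearest to the upper cut-off from inside, at percentiles up to 30.6 in DKS-5 and down to 70.5 in DKO-3. Of the CELF2 probe sets outside the cut-offs, 202156_s_at was the brightest in DKO-3, at up to 33.4 in DKS-5 and 36.9 to 52.3 in DKO-3.

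CADPS, the paralogue of CADPS2, was present in both lines and was not low in DKS-5. Its brightest probe set, 1568604_a_at, read 548 and 479 in DKS-5 hypoxia and 454 and 601 in DKS-5 normoxia. It read 302 and 316 in DKO-3 hypoxia and 323 and 252 in DKO-3 normoxia, so all DKS-5 arrays lay above all DKO-3 arrays. The log2 difference, DKS-5 minus DKO-3, was 0.70 ± 0.24 (SE; adjusted p = 0.156, limma) in hypoxia and 0.84 ± 0.24 (adjusted p = 0.135, limma) in normoxia, which did not pass the threshold of 0.05. The 95% intervals were 0.20 to 1.21 in hypoxia and 0.33 to 1.34 in normoxia.

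A second CADPS probe set, 1568603_at, also did not overlap between the lines. It read 236 and 256 in DKS-5 hypoxia, 232 and 329 in DKS-5 normoxia, 190 and 212 in DKO-3 hypoxia, and 158 and 162 in DKO-3 normoxia. Its difference was 0.27 ± 0.25 (adjusted p = 0.639) in hypoxia and 0.73 ± 0.25 (adjusted p = 0.269) in normoxia by limma. Without the scaling of arrays the hypoxia value turned to −0.15. The other 4 CADPS probe sets (239884_at, 233950_at, 234220_at and 204814_at) overlapped between the lines, with tested differences between −0.03 and 0.70. Of the 6 CADPS probe sets, 6 were on average higher in DKS-5 in hypoxia and 5 in normoxia, and 4 in hypoxia without the scaling of arrays.

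CELF1, the paralogue of CELF2, was bright in both lines. Probe set 204113_at read 2096 and 2113 in DKS-5 hypoxia, 2144 and 2160 in DKS-5 normoxia, 1720 and 1360 in DKO-3 hypoxia, and 1976 and 2072 in DKO-3 normoxia. The DKS-5 arrays all lay above the DKO-3 arrays, by a narrow margin in normoxia. The difference was 0.46 ± 0.17 (95% interval 0.09 to 0.83; adjusted p = 0.210, limma) in hypoxia and 0.09 ± 0.17 (−0.28 to 0.46; adjusted p = 0.973) in normoxia. Without the scaling of arrays the hypoxia value was 0.00298 (adjusted p = 0.993).

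The second bright CELF1 probe set, 221743_at, read 1946 and 1877 in DKS-5 hypoxia, 1624 and 1775 in DKS-5 normoxia, 1488 and 1568 in DKO-3 hypoxia, and 1715 and 1610 in DKO-3 normoxia. The lines overlapped, and neither difference passed: 0.32 ± 0.17 (adjusted p = 0.381, limma) in hypoxia, and −0.13 without the scaling of arrays, against 0.03 ± 0.17 (adjusted p = 0.994) in normoxia. The other 5 CELF1 probe sets overlapped between the lines too. Over all 7, differences ranged from −0.16 to 0.46 in hypoxia and from −0.14 to 0.61 in normoxia.

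Of the 13 CADPS and CELF1 probe sets, 0 of 13 passed the threshold in hypoxia, where 2.08% of all tested probe sets did, and 0 of 13 in normoxia, where 1.15% did. The lines did not overlap on 3 of the 13, all higher in DKS-5, beside 4.55% of all tested probe sets in that direction and 11.9% in either. The intervals leave room for differences of up to 1.47 in hypoxia (CADPS 239884_at) and 1.45 in normoxia (CELF1 235297_at), so differences of that size are not left out for those probe sets. The lowest bound was −0.84, above the values of CADPS2 and of the 2 brighter CELF2 probe sets. CADPS2 and CELF2 were chosen on this difference, so setting their values beside these intervals is a description and no test.

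**Figure D2:**
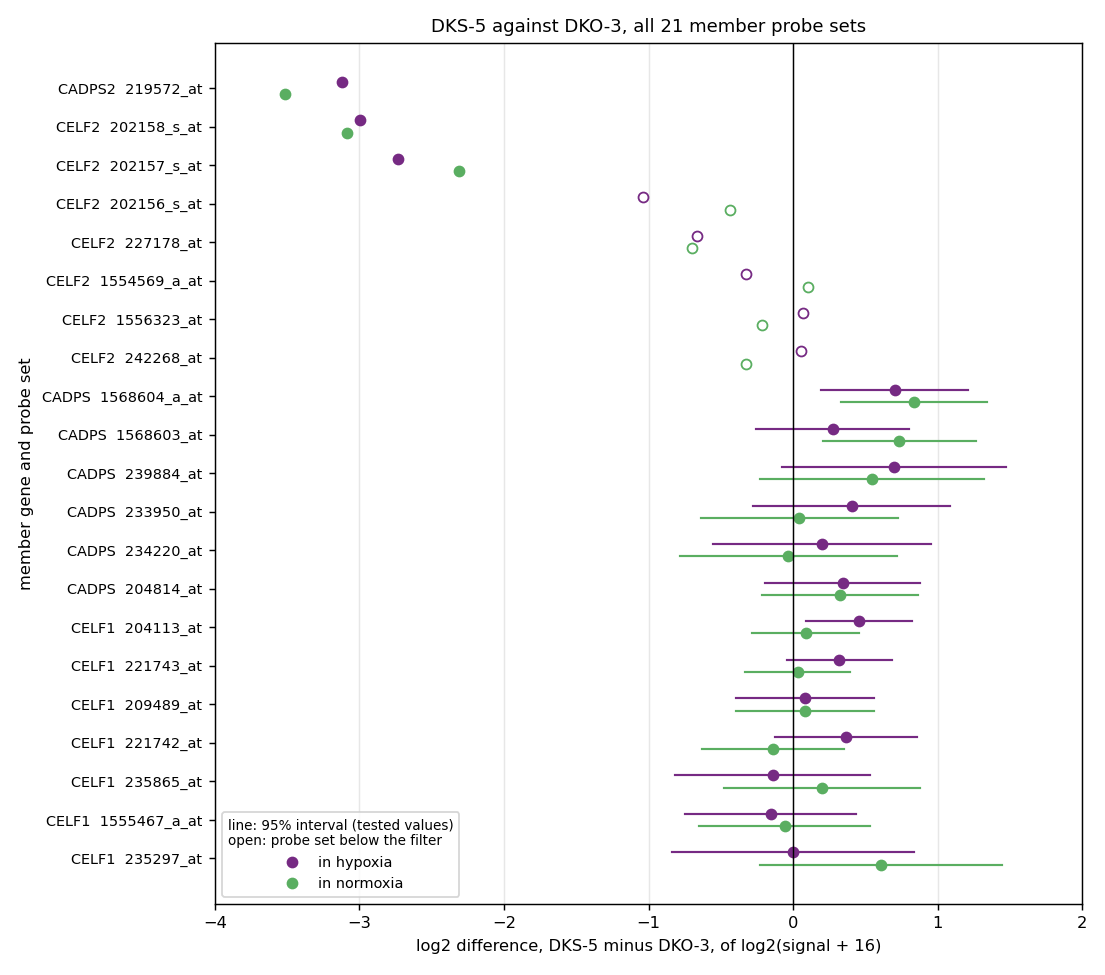
Difference of log2(signal + 16), DKS-5 minus DKO-3, for the 21 member probe sets in hypoxia (upper point of each pair) and normoxia (lower point); lines are 95% intervals of the tested values, open points are probe sets below the filter, and CADPS2 and CELF2 carry no interval because they were chosen on this difference. CADPS2 and 2 CELF2 probe sets lie between −3.52 and −2.31, and the CADPS and CELF1 values lie between −0.16 and 0.84.

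CADPS2 and CELF2 stood near background in DKS-5 at both oxygen levels, where a change with hypoxia can hardly be read. In DKS-5, hypoxia minus normoxia was 0.32 for CADPS2 (95% interval −0.30 to 0.93; adjusted p = 0.979, limma). It was 0.46 for CELF2 202158_s_at (−0.35 to 1.27; adjusted p = 0.972) and −0.03 for 202157_s_at (−0.55 to 0.49; adjusted p = 0.998). With 1 added in place of 16 the value was 1.54 for CADPS2 and 1.22 for 202158_s_at. Without DKS-5 hypoxia replicate 2, the array at 19.4, 202158_s_at stood at −0.063 and CADPS2 at 0.069, and without replicate 1 at 0.98 and 0.57. These values are a description of dim signals and do not show that either gene was unchanged.

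In DKO-3, where both genes are bright, CADPS2 changed by −0.08 with hypoxia (95% interval −0.70 to 0.54; adjusted p = 0.966, limma). CELF2 202158_s_at stood at 0.37 (−0.44 to 1.18; adjusted p = 0.845) and 202157_s_at at 0.39 (−0.13 to 0.90; adjusted p = 0.729). No upper bound of these intervals was above 1.18. For CELF1 204113_at, hypoxia minus normoxia in DKO-3 was −0.40 ± 0.17 (adjusted p = 0.592), and for the dim 235297_at it was 0.93 ± 0.39 (adjusted p = 0.577), where 1 normoxia array read 1.42 and the other 38.8.

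Over all 16 tested member probe sets, 0 passed with hypoxia in DKS-5, beside 0.262% of all tested, and the values ran from −0.16 to 0.46. In DKO-3 0 of 16 passed, beside 0.177% of all tested, with values from −0.40 to 0.93. At an unadjusted p under 0.05 DKS-5 had 0 of 16, beside 1759 of all 32768 tested probe sets. DKO-3 had 2 of 16, beside 2645 of 32768, and both were the CELF1 probe sets named above. The difference between the responses of the lines passed for 0 of 16 (lowest adjusted p = 0.9999, limma), beside 0% of all tested. At an unadjusted p under 0.05, 736 of the 32768 probe sets and 0 of the 16 members differed in response. The CADPS2 and CELF2 probe sets among the 16 were near background in DKS-5 and passed the filter through DKO-3. Their tests in DKS-5 and between the responses could hardly pass, so these counts do not show that they were unchanged.

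**Figure D3:**
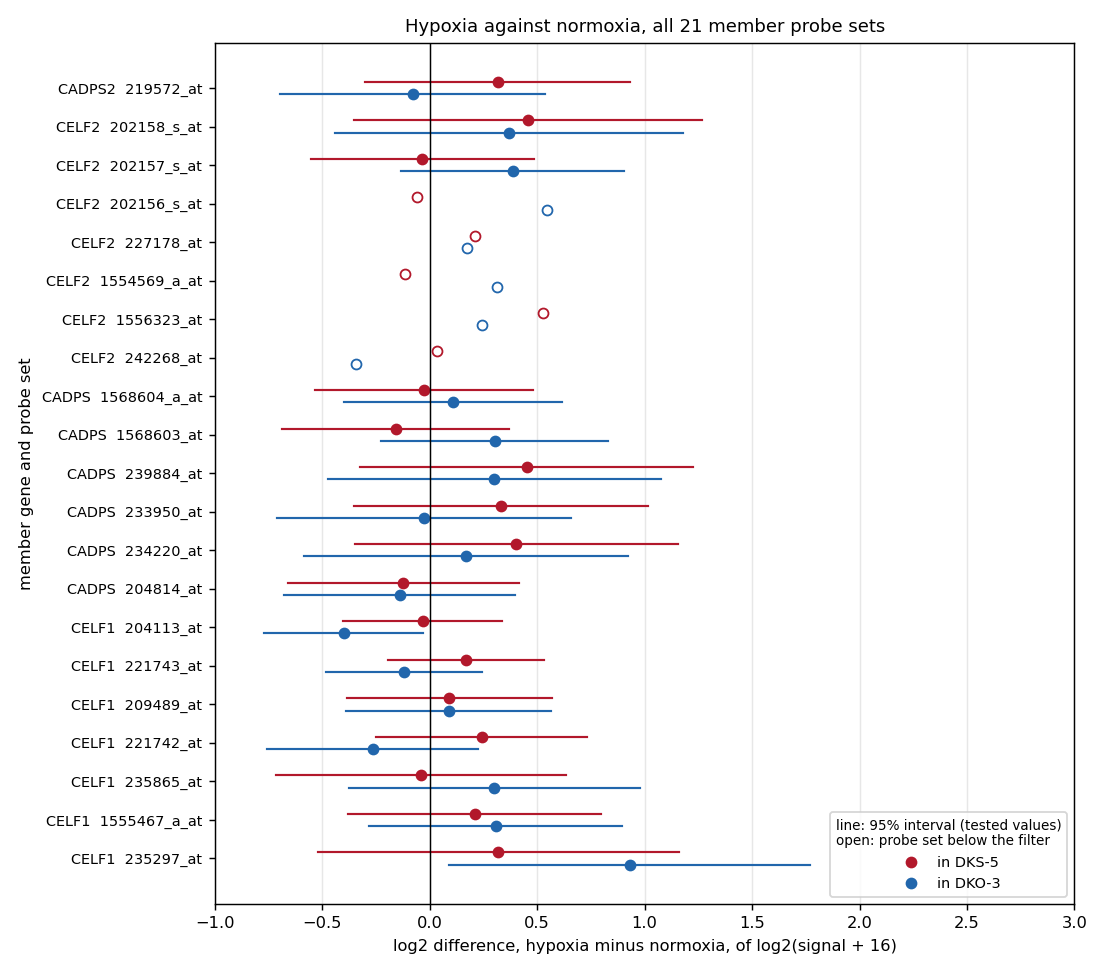
Difference of log2(signal + 16), hypoxia minus normoxia, for the 21 member probe sets in DKS-5 (upper point of each pair) and DKO-3 (lower point); lines are 95% intervals and open points are probe sets below the filter. Values lie between −0.40 and 0.93, and the intervals of 2 CELF1 probe sets in DKO-3 leave out 0 before adjustment.

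The DNA around the start sites is shown because the arrays set hypoxia against normoxia, and ACGTG is the core of the hypoxia response element. RefSeq promoter windows (GRCh38.p14), 250 bases before to 50 after a start, were held for 3 of the 4 genes: 10 for CELF2, 1 for CADPS and 5 for CELF1. CADPS2 had no entry. ACGTG on either strand stood in 1 CELF2 window and in the CADPS window, 2 of 16, beside 21.4% of all 35116 windows. The CELF2 windows held 5 to 54 CG dinucleotides and the CELF1 windows 1 to 44, beside a median of 14 over all windows. Shown 5′ to 3′ on the gene's strand are the 2 windows with the motif, in capitals (as CACGT where it lies on the opposite strand), and the most CG-rich window of CELF2 and of CELF1, with no capitals. They are CELF2 at chr10:10462300-10462599 (plus strand, 7 CG) and chr10:11018248-11018547 (plus strand, 54 CG), CADPS at chr3:62875367-62875666 (minus strand, 17 CG) and CELF1 at chr11:47565490-47565789 (minus strand, 44 CG).
CELF2, first start: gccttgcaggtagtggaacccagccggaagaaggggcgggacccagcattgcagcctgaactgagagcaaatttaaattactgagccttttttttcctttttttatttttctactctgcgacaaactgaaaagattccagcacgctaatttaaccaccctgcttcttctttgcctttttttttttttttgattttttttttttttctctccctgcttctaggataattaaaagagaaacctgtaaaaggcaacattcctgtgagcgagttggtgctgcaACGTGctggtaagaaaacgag
CELF2, CG-rich start: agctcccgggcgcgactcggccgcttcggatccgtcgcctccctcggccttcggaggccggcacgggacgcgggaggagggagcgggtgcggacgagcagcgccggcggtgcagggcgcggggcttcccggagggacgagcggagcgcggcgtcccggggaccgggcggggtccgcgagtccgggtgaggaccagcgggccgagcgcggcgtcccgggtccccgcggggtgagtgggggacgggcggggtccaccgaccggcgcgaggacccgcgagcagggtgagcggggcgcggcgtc
CADPS: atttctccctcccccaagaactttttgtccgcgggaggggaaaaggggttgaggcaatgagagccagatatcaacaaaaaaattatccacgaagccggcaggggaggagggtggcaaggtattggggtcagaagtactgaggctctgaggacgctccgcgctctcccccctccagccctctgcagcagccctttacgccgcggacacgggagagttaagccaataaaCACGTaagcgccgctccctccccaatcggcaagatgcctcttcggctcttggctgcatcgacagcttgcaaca
CELF1, CG-rich start: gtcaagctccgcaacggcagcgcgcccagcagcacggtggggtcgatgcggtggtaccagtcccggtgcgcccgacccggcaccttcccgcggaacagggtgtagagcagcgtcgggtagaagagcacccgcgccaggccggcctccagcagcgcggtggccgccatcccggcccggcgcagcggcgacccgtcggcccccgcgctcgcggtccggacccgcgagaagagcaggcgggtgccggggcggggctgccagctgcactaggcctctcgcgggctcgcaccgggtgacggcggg
The motif matches say only that these letters occur in the windows. Beside them, neither CELF2 nor CADPS passed the threshold with hypoxia in either line. In DKS-5 CELF2 was near background and could hardly pass.

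The genes whose pattern over the 8 arrays was most like CADPS2, by Pearson correlation of log2 values with 12731 other tested genes, were LINC01133 (0.994), KLHL13 (0.994), CLDN1 (0.991), SLC24A1 (0.991) and PROM2 (0.989). For CELF2 they were HCG26 (0.995), IFIT1 (0.994), GSPT2 (0.990), TNS1 (0.990) and SDR16C5 (0.990). CADPS2 and CELF2 correlated at 0.953 with each other, which put CELF2 at rank 118 for CADPS2 and CADPS2 at rank 75 for CELF2. All these values follow the split between the lines, which the 8 arrays share, and they are given as a description. Among the genes named, KLHL13, an adaptor of a ubiquitin ligase, came closest to the near-absence of CADPS2: it averaged 2.06 in DKS-5 hypoxia and 0.824 in DKS-5 normoxia, against 172 in DKO-3 hypoxia and 145 in DKO-3 normoxia. CLDN1, a tight junction protein, was only lowered, to 117 and 109 in DKS-5 hypoxia and normoxia, against 264 and 259 in DKO-3.

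Of the 31 genes listed for vesicle priming and SNARE fusion, 22 were tested and 0 passed at either oxygen level, beside 2.84% of all 12735 genes in hypoxia and 1.79% in normoxia. The median difference was −0.10 in hypoxia and −0.06 in normoxia, beside −0.03 and 0.01 for all genes. The smallest p-values belonged to STX4, a plasma membrane syntaxin (−0.61 ± 0.25, adjusted p = 0.241), and NAPG, which recycles SNARE complexes (−0.67 ± 0.28, adjusted p = 0.251), both in hypoxia. In normoxia they belonged to UNC13B, another priming factor (0.59 ± 0.25, adjusted p = 0.474), and STX3, a syntaxin of the apical membrane (0.40 ± 0.25, adjusted p = 0.756). All 9 exocyst subunits, which tether vesicles to the membrane, were tested and 0 passed. EXOC7 in hypoxia (−0.62 ± 0.23, adjusted p = 0.189) and EXOC6B in normoxia (−0.44 ± 0.29, adjusted p = 0.781) had the smallest p-values.

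Among 25 secretory Rab GTPases, Rab effectors and synaptotagmins, 15 were tested. In hypoxia 0 rose, 1 fell and 14 did not pass, beside 1.96% of all genes lower, and in normoxia 0 of 15 passed. The gene that fell was SYT13, a synaptotagmin that does not bind calcium. Its brightest probe set, 226086_at, read 6.38 and 0.666 in DKS-5 hypoxia and 15.3 and 15.3 in DKS-5 normoxia. It read 29.3 and 30.9 in DKO-3 hypoxia and 63.5 and 42.7 in DKO-3 normoxia, so the lines did not overlap. Both DKS-5 hypoxia values lay below the filter signal of 13.8. The second SYT13 probe set, 221859_at, was at or below 9.41 on every array and was not tested. Its difference was 0.33 in hypoxia and −0.23 in normoxia. For 226086_at the difference was −1.26 ± 0.26 (adjusted p = 0.0196, limma) in hypoxia and −1.13 ± 0.26 (adjusted p = 0.0505) in normoxia. The hypoxia call was lost without DKS-5 hypoxia replicate 2 (−1.04, adjusted p = 0.118), without DKO-3 hypoxia replicate 1 (−1.28, 0.136) or replicate 2 (−1.23, 0.0799), with the ACTB ratio as a covariate (−1.71, 0.0749) and without the filter on dim probe sets (0.103). Near the threshold stood RAB3B, a Rab GTPase of secretory vesicles, at −0.93 (adjusted p = 0.0957) in hypoxia and −1.05 (adjusted p = 0.0896) in normoxia. SYTL2, an effector of RAB27, stood at −0.78 (adjusted p = 0.0821) and −0.65 (adjusted p = 0.267). The list median was −0.38 in hypoxia and −0.46 in normoxia, with 11 and 12 of 15 genes lower in DKS-5, beside medians of −0.03 and 0.01 for all genes and shares of 53.8% and 49.1% of all genes lower. In hypoxia the list stood at −0.67 with 15 of 15 lower without the scaling of arrays, where the median of all probe sets was −0.42, and at −0.26 with 10 of 15 lower after quantile normalization.

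The cargo of dense-core vesicles was mostly below the filter. Of 21 genes listed, 18 had a probe set, 6 were tested and 0 passed. CPE, which trims prohormones, averaged 158 ± 3.32 in DKS-5 hypoxia and 177 ± 38.5 in DKS-5 normoxia, against 336 ± 48.2 in DKO-3 hypoxia and 303 ± 41.7 in DKO-3 normoxia (SD, n = 2 arrays each). Its difference was −1.01 ± 0.25 (adjusted p = 0.0530, limma) in hypoxia and −0.73 ± 0.25 (adjusted p = 0.279, limma) in normoxia. CHGA, a marker protein of dense-core granules, averaged 6.004 in DKS-5 hypoxia, 4.67 in DKS-5 normoxia, 2.76 in DKO-3 hypoxia and 5.38 in DKO-3 normoxia, within the range of the non-epithelial markers.

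Of the other RNA-binding genes, 1 passed between the lines. CELF3, CELF4, CELF5 and CELF6, known mainly from the nervous system, averaged 8.78 to 34.3 over the 4 groups, and 0 of 4 passed. Of 25 splicing regulators 18 were tested: 0 rose and 1 fell in normoxia, beside 1.27% of all genes lower, and 0 of 18 passed in hypoxia. The gene that fell was QKI, an RNA-binding protein that regulates splicing. Its brightest probe set, 212265_at, read 258 and 334 in DKS-5 hypoxia and 370 and 288 in DKS-5 normoxia, against 497 and 764 in DKO-3 hypoxia and 1043 and 702 in DKO-3 normoxia. All DKS-5 arrays lay below all DKO-3 arrays. The difference was −1.03 ± 0.27 (adjusted p = 0.0669, limma) in hypoxia and −1.35 ± 0.27 (adjusted p = 0.0238) in normoxia.

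QKI has 10 probe sets, of which 6 were tested and all 6 were lower in DKS-5 at both oxygen levels. In hypoxia 3 of the 6 passed and in normoxia 2, beside 2.08% and 1.15% of all tested probe sets. The brightest probe set and the others thus did not give the same call. Probe sets of 1 gene read the same RNA and are not replicates. The normoxia call of 212265_at was lost without DKS-5 normoxia replicate 1 (adjusted p = 0.104) or replicate 2 (0.329) and without DKO-3 normoxia replicate 1 (0.281). Testing all probe sets, dim ones included, ended it too (0.124). MBNL1, which acts opposite to CELF1 on several splice sites, averaged 1160 in DKS-5 hypoxia and 1185 in DKS-5 normoxia, against 1263 in DKO-3 hypoxia and 1297 in DKO-3 normoxia; it was chosen after its values were seen. Of 19 factors of mRNA stability and translation 13 were tested and 0 passed. ZFP36L2, which promotes decay of AU-rich mRNAs, came nearest at 0.77 ± 0.21 (adjusted p = 0.0714, limma) in hypoxia and 0.49 ± 0.21 (adjusted p = 0.481) in normoxia.

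**Figure D4:**
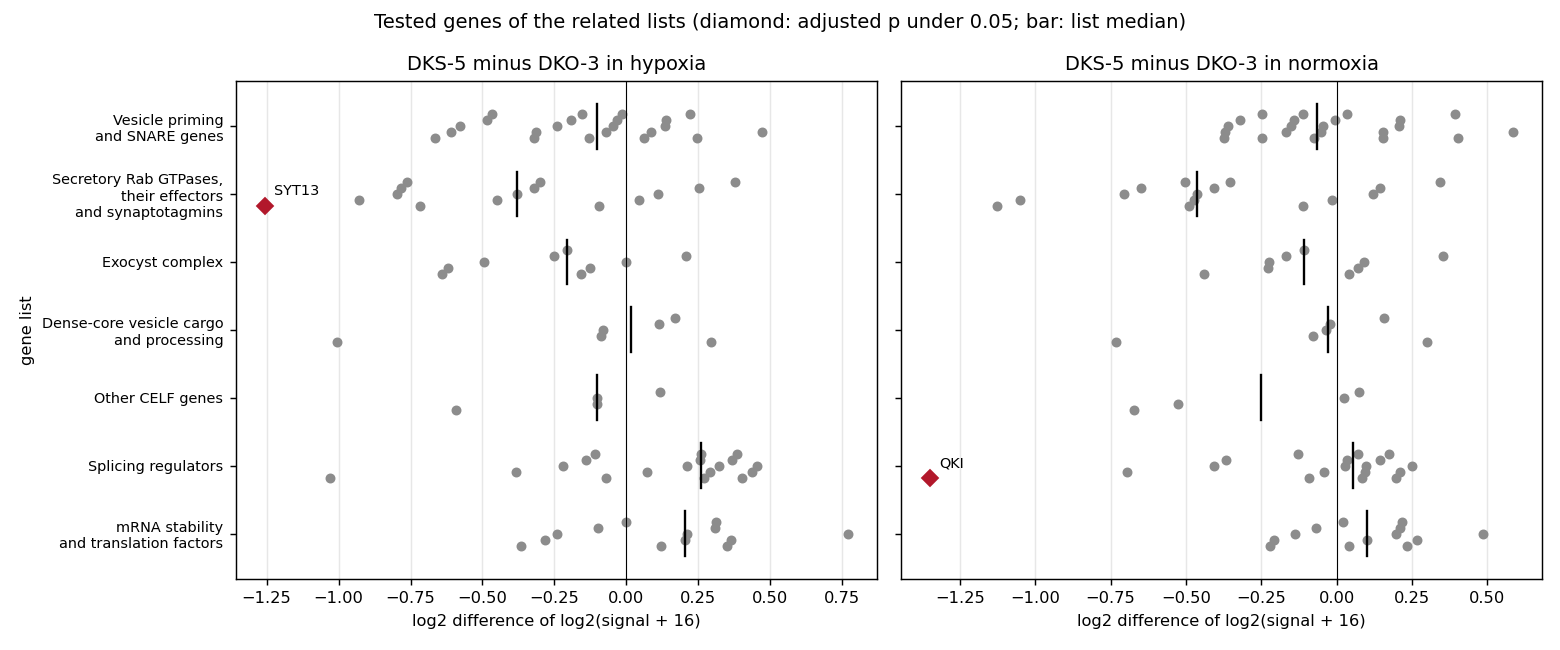
Difference of log2(signal + 16), DKS-5 minus DKO-3, of each tested gene in 7 lists in hypoxia (left) and normoxia (right); points are genes by their brightest probe set, red diamonds have an adjusted p under 0.05, and bars are list medians. SYT13 in hypoxia (−1.26) and QKI in normoxia (−1.35) are the genes that passed.

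None of the 7 lists held a gene that passed with hypoxia in either line, beside 0.416% of all genes in DKS-5 and 0.275% in DKO-3. BDNF, whose release depends on CADPS2 in mouse neurons, was named after its values were seen. It averaged 158 ± 59.8 in DKS-5 hypoxia against 334 ± 69.5 in DKS-5 normoxia, and 164 ± 29.9 in DKO-3 hypoxia against 339 ± 10.04 in DKO-3 normoxia (SD, n = 2 arrays each). The differences were −1.04 ± 0.28 (adjusted p = 0.384, limma) in DKS-5 and −0.99 ± 0.28 (adjusted p = 0.337) in DKO-3, neither past the threshold. Between the lines BDNF differed by −0.08 in hypoxia and −0.03 in normoxia.

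The genes beside CADPS2 and CELF2 on the chromosome were read, taking the 5 nearest genes with a probe set on each side. CADPS2 and CELF2 were chosen for a signal near background in DKS-5, so their place below the neighbours is a description and no test. Neighbours below the filter were dim and could hardly show a fall. Around CADPS2 on chromosome 7, 5 of 10 were tested and 1 passed, at both oxygen levels, beside 2.84% of all genes in hypoxia and 1.79% in normoxia. That gene was AASS, the immediate neighbour on 1 side, which encodes an enzyme of lysine breakdown. AASS read 103 and 99.5 in DKS-5 hypoxia and 176 and 139 in DKS-5 normoxia, against 269 and 213 in DKO-3 hypoxia and 420 and 397 in DKO-3 normoxia. The lines did not overlap, and AASS remained well above background in DKS-5. The difference was −1.12 (adjusted p = 0.0267, limma) in hypoxia and −1.29 (adjusted p = 0.0153) in normoxia.

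The AASS calls rested on every array of their comparison. Leaving out any 1 of the 4 normoxia arrays ended the normoxia call (adjusted p = 0.0907 to 0.286; −1.45 to −1.14), and leaving out any 1 of the 4 hypoxia arrays ended the hypoxia call (0.0522 to 0.255; −1.28 to −0.97). Leaving out either DKS-5 normoxia array also ended the hypoxia call (0.0527 and 0.0521), as did the ACTB ratio as a covariate (−1.28, adjusted p = 0.202) and a fit of the 4 hypoxia arrays alone (0.0909). Without the filter on dim probe sets both calls were lost (0.0714 in hypoxia and 0.0550 in normoxia). The second AASS probe set, 214829_at, stood at −1.005 (adjusted p = 0.0526) in hypoxia and −0.95 (adjusted p = 0.101) in normoxia. Beyond AASS, FAM3C on the same side was bright in both lines and stood at 0.47 (adjusted p = 0.234) in hypoxia and 0.32 (adjusted p = 0.725) in normoxia. RNF133 and RNF148, which lie inside CADPS2, were below the filter in both lines.

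Around CELF2 on chromosome 10, 4 of 10 neighbours were tested and 0 passed. SFTA1P, which lies inside CELF2, averaged 13.1 in DKS-5 hypoxia and 14.2 in DKS-5 normoxia, against 21.3 and 29.6 in DKO-3. Its difference was −0.29 (adjusted p = 0.690, limma) in hypoxia and −0.61 (adjusted p = 0.599) in normoxia. LINC00710, also inside CELF2, was below the filter. GATA3, a transcription factor, averaged 11.7 in DKS-5 hypoxia and 15.8 in DKS-5 normoxia, against 30.3 in DKO-3 hypoxia and 38.0 in DKO-3 normoxia, a difference of −0.75 (adjusted p = 0.177) and −0.75 (adjusted p = 0.319) by limma. USP6NL on the other side was bright in both lines, at 0.67 (adjusted p = 0.130) and 0.36 (adjusted p = 0.725). Around CADPS on chromosome 3, 0 of 4 tested neighbours passed, and around CELF1 on chromosome 11, 0 of 6.

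**Figure D5:**
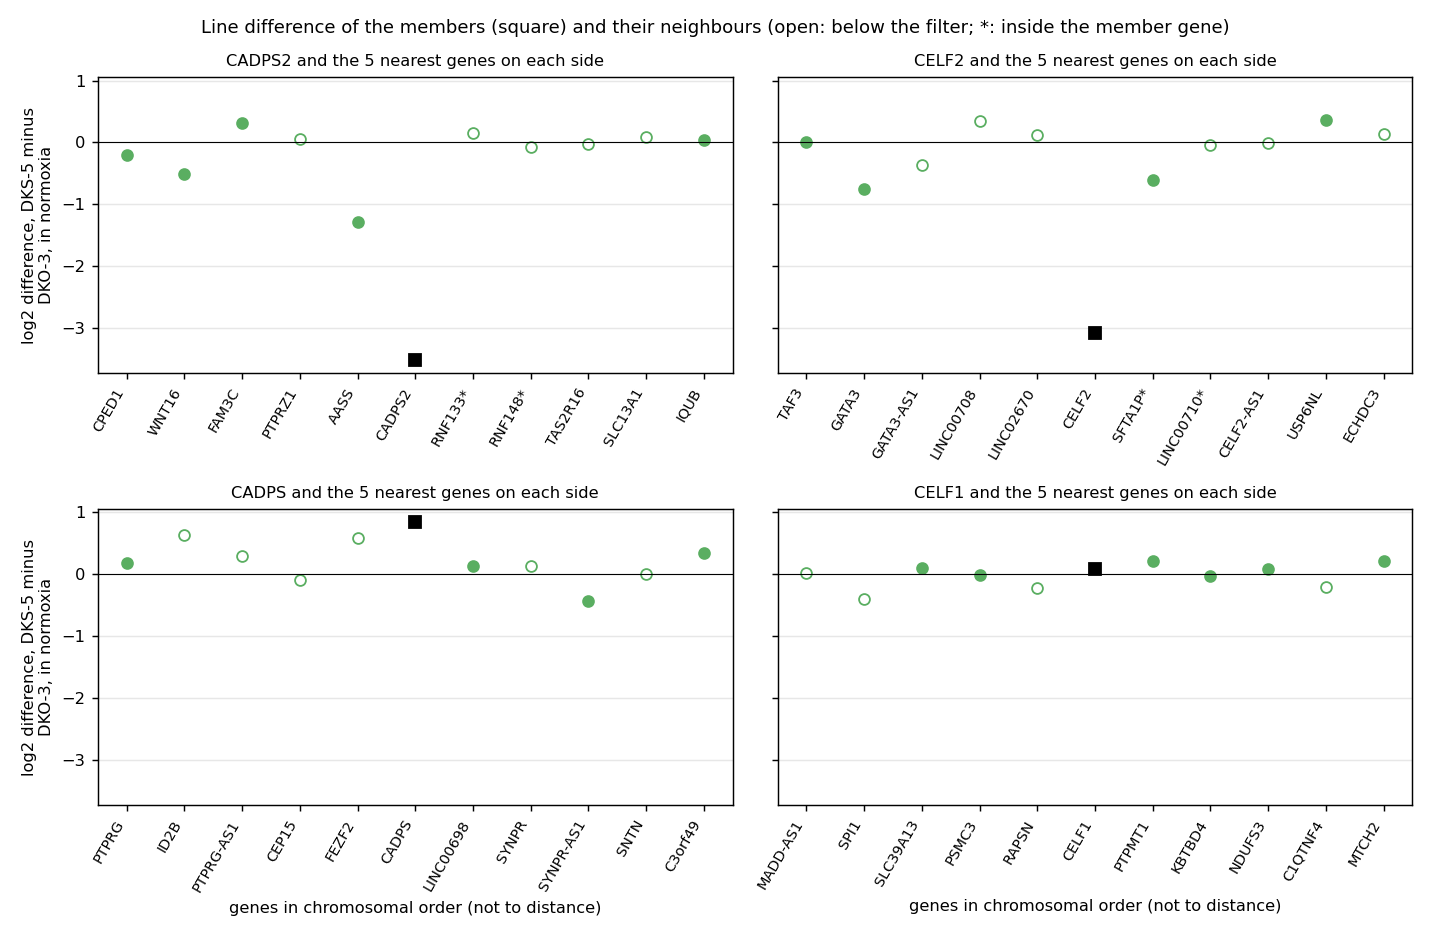
Difference of log2(signal + 16), DKS-5 minus DKO-3, in normoxia for the members (squares) and the 5 nearest genes on each side, in chromosomal order and not to distance; open points are below the filter and an asterisk marks a gene inside the member. CADPS2 (−3.52) and CELF2 (−3.09) stand far below their neighbours, of which AASS (−1.29) is the lowest. Both genes were chosen for a low signal in DKS-5, so this is a description, and the dim neighbours (open points) could hardly show a fall.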

How the data were processed

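Total RNA of the 2 lines (4 groups of 2 arrays) was amplified with a NuGEN Ovation kit, per the labels' protocols, and hybridised to human expression arrays. The deposited values are intensities, MAS5 signals on a linear scale, per the submitters' processing notes; the version and scaling target are not given in the sources used here. Trimmed means (2%) of the arrays ran from 133 to 202, so each array was scaled to the median, 173. Values were taken as log2(signal + 16) and fitted with limma 3.58.1 (R 4.3.3): 4 group means fitted on the 8 arrays, contrasts between them, moderated variances with a trend (eBayes), two-sided, Benjamini-Hochberg over all 32768 probe sets tested, threshold 0.05. Residual degrees of freedom were 4; the number of arrays limits the precision. The fit was run on simulated data with noise drawn independently for each array. That run does not cover the correlations between replicate differences given below.

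Probe sets were named from the platform annotation: 41091 had 1 symbol, 1801 several and 11721 none, beside 62 controls. A gene was read by its probe set of highest mean. Named were all member probe sets; per list and line comparison up to 4 genes that passed or, with none, up to 2 of smallest p; the 5 genes most correlated with CADPS2 and with CELF2; and the 5 nearest genes on each side. EPCAM, CHGA, SYTL2, MBNL1 and BDNF were named after their values were seen. Members and lists were chosen with earlier results of these data known. The K-ras gene itself was not analysed here. Alternatives were another pseudocount, no scaling, quantile normalization, no filter, 1 probe set per gene, 4 arrays only, a replicate block, the ACTB ratio as covariate, and each array left out.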

Additional observations from a re-analysis of the deposited data

How the results depend on the processing

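Alternatives were run for 7 of the 16 tested member probe sets: CADPS2, both tested CELF2 and the 2 brightest of CADPS and of CELF1. None of their tested comparisons passed the threshold under any of them; the lowest adjusted p was 0.0811 (CADPS 1568604_a_at between lines in normoxia, 1 probe set per gene). The counts over all probe sets moved more. DKS-5 against DKO-3 in normoxia (378 called) gave 130 without the filter, 587 with the replicate block and 111 to 513 with 1 array left out, at most 160 without any 1 of the 4 normoxia arrays. In hypoxia (683) it gave 5211 without array scaling, 234 without the filter, 370 with 4 arrays, 1180 with the replicate block, 104 with the RNA quality covariate and 201 to 854 with 1 array left out, lowest without DKO-3 hypoxia replicate 1. Without array scaling 2.13% of those calls were higher in DKS-5, against 27.5% with it, and the median of all tested probe sets moved by −0.36. The hypoxia response of DKS-5 (86) gave 39 without scaling, 37 without the filter, 48 with 4 arrays and 31 to 193 with 1 array left out, highest without DKS-5 hypoxia replicate 1. That of DKO-3 (58) gave 116 without scaling, 1 without the filter, 115 with the replicate block, 8 with the covariate and 1 to 77 with 1 array left out, lowest without DKO-3 hypoxia replicate 1. The difference between the responses had 0 calls in every fit. The cause of these moves was not tested.

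Among these 7 probe sets, signs turned without array scaling for CADPS2 in DKO-3 hypoxia (0.10), CADPS 1568603_at between lines in hypoxia (−0.15), CELF1 221743_at between lines in hypoxia (−0.13), under hypoxia in DKS-5 (−0.087) and under hypoxia in DKO-3 (0.071), and the response difference of CELF2 202158_s_at (−0.14), CELF1 204113_at (−0.081) and 221743_at (−0.16). Over all tested probe sets, those higher in DKS-5 in hypoxia then numbered 1 in place of 4 of 7 for CELF1 and 4 in place of 6 of 6 for CADPS, and a positive response difference 0 in place of 4 of 6 for CADPS and 1 in place of 4 of 7 for CELF1. With 1 array left out, these ranges crossed 0: CADPS2 in DKO-3 hypoxia, −0.39 to 0.23; CELF2 202158_s_at in DKS-5 hypoxia, −0.063 to 0.98, in DKO-3 hypoxia, −0.20 to 0.94, and in the response difference, −0.48 to 0.66; CELF2 202157_s_at in DKS-5 hypoxia, −0.11 to 0.043; CADPS 1568604_a_at in DKS-5 hypoxia, −0.22 to 0.17, in DKO-3 hypoxia, −0.063 to 0.28, and in the response difference, −0.33 to 0.061; CADPS 1568603_at in DKS-5 hypoxia, −0.40 to 0.081; CELF1 221743_at between lines in normoxia, −0.033 to 0.094. None of these had passed the threshold. Differences between the replicates correlated at −0.06 to 0.35 between groups, above 0.1 in 4 of 6 group pairs. Not every pair was above 0.1 and no label ties the numbers to a shared batch, so the arrays were not treated as paired; whether some share one was not tested.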
